A study of Homo sapiens with 12 samples.

Results

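The collagen genes were followed across 12 RNA sequencing libraries of the human line ARPE-19, which derives from retinal pigment epithelium. Members were the genes whose symbol is COL, a type number, A and a chain number, which gave 44 of the 62757 genes in the counts table. Of these, 23 passed the filter on low counts and were tested among 13896 genes. All cells, the non-transduced control included, had first received 3 µM of the retinoid fenretinide during 120 h. The vectors were AAV9-AIPL1wt with the native coding sequence of AIPL1, AAV9-AIPL1co with a codon-optimized one, and AAV9-GFP, each given at 100000 vector genomes per cell, and the control received none. Harvest was 24 h or 18 h after transduction, since the descriptions differ. Each group had 3 replicates of the same line, described as biological. Control replicate 1 was removed by the study as an outlier, so the control of every test is 2 libraries. Unless control replicate 1 is named, statements on which libraries lay above or below others cover the 11 libraries used.

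Collagens are proteins of 3 chains wound into a triple helix, in which glycine recurs with a fixed spacing, written Gly-X-Y. Fibrillar collagens build the fibers of connective tissue. Type IV chains form the network of basement membranes, such as that of the retinal pigment epithelium. Other classes lie on fibril surfaces, anchor epithelia, form hexagonal networks, span the cell membrane, or carry sugar chains and release antiangiogenic fragments (the multiplexins). Chains are made from separate genes, so a heterotrimer needs transcripts of several genes in 1 cell.

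The repeat can be read directly in the coding sequence. The following stretches of 54 bases are shown because they come from genes the results below turn on and because their base composition differs. Each is the first run of 18 codons within 1 coding exon of the longest unbroken Gly-X-Y repeat of the gene's canonical transcript, on the coding strand of GRCh38 with the Gencode 44 annotation, and capitals mark the 6 glycine codons that open a triplet. A lower-case gga at the end of a triplet in COL8A1 and COL4A5 also encodes glycine.

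COL8A1, chr3:99794952-99795005, + strand: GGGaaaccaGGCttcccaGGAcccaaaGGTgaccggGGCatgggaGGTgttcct

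COL4A5, chrX:108677508-108677561, + strand: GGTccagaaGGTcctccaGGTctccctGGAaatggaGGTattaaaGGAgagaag

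COL4A6, chrX:108221321-108221374, - strand: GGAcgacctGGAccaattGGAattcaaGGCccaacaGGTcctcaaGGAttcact

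COL11A2, chr6:33179231-33179284, - strand: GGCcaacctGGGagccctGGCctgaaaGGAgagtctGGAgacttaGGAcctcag

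COL17A1, chr10:104052156-104052209, - strand: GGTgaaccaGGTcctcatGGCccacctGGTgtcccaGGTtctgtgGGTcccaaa

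COL15A1, chr9:99024946-99024999, + strand: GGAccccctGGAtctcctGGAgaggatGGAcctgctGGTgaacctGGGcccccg

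COL18A1, chr21:45480796-45480849, + strand: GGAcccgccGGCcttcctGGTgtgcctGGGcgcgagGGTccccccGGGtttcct

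G and C made up 51.9% of the COL4A5 and COL4A6 stretches and 75.9% of the COL18A1 stretch. Over all Gly-X-Y runs of at least 5 triplets, GC content ranged from 57.5% in COL4A5 to 72.8% in COL18A1 among the 23 genes tested. The longest unbroken repeat was 338 triplets in COL1A1, COL5A1, COL11A1 and COL11A2, and 339 in COL5A2. It was 30 triplets in COL15A1 and COL18A1, whose helices are interrupted.

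ARPE-19 cells expressed a collagen set led by COL8A1, which encodes a chain of the hexagonal network of type VIII. Levels between genes are given as TMM-scaled counts per kilobase of exons and per 1000000 counts. On this scale COL8A1 averaged 62.3 over the 11 libraries used, followed by COL18A1 at 24.1, COL12A1 at 15.4, COL4A2 at 12.1, COL4A1 at 10.04 and COL11A1 at 8.78. At the other end of the genes tested, COL13A1 stood at 0.215 and COL15A1 at 0.163. COL8A1 alone took 17.3% to 24.6% of all collagen counts in the AAV9-AIPL1wt libraries and between 31.0% and 32.6% in those with AAV9-AIPL1co. The AAV9-GFP libraries held 36.0% to 37.6%, and the controls 38.6% to 39.8%.

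**Figure D1:**
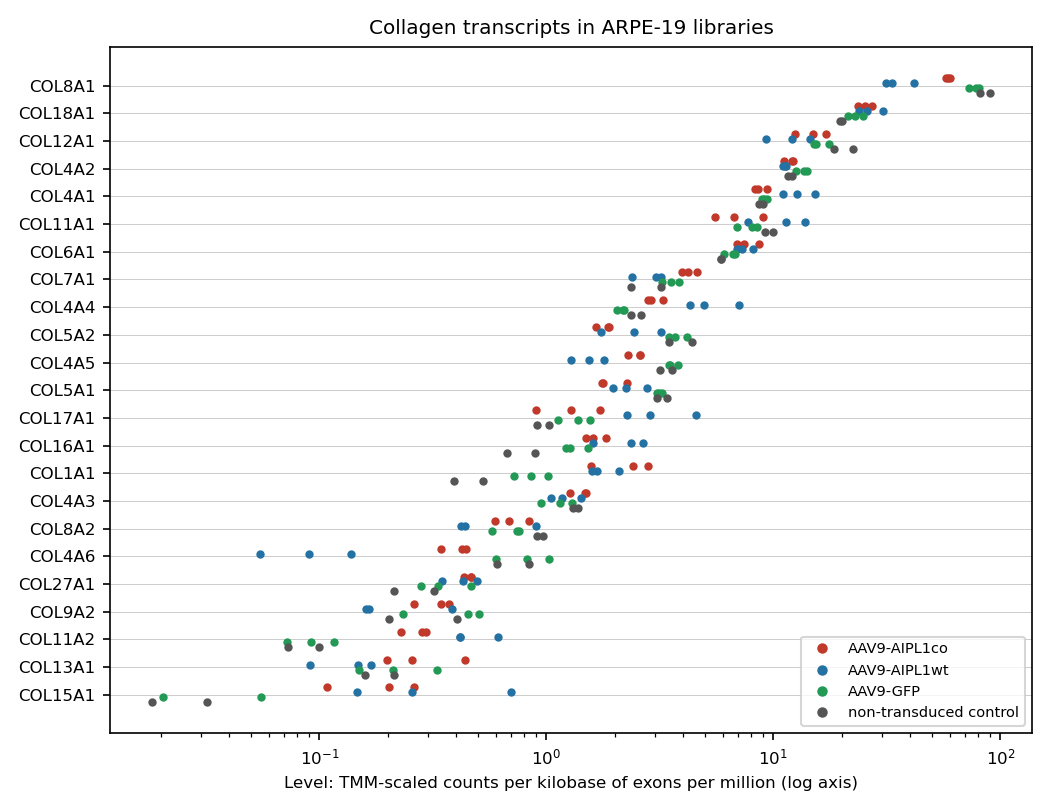
Level of each of the 23 collagen genes tested, in TMM-scaled counts per kilobase of exons and per 1000000 counts (log axis), with 1 point per library and colors for the 4 groups; control replicate 1 is left out and 1 AAV9-GFP library with 0 COL15A1 counts cannot be drawn. COL8A1, averaging 62.3, stands above all other collagens, and its AAV9-AIPL1wt points lie below those of the other groups.

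The other 21 members were not tested. No counts were found in any of the 12 libraries for 9 of them, namely COL2A1, COL6A5, COL14A1, COL19A1, COL20A1, COL22A1, COL23A1, COL25A1 and COL26A1. Over the 12 libraries together, 11 had 1 to 20 counts and COL24A1 had 25, and no library held more than 6 counts of any of them. Several partners of expressed chains were among them. COL1A2, the partner of COL1A1 in type I collagen, had 3 counts in all, and COL6A2 and COL6A3, the partners of COL6A1, had 5 and 7. COL3A1, the chain of type III collagen, had 13 counts. At this depth, low levels of these genes were not detectable.

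Collagen transcripts together made up 0.211% ± 0.0123 of gene counts in the control (SD, n = 2). The share was 0.197% ± 0.00705 with AAV9-GFP, 0.174% ± 0.00874 for AAV9-AIPL1co and 0.154% ± 0.0163 for AAV9-AIPL1wt (n = 3 in each group). The AAV9-AIPL1co and AAV9-AIPL1wt ranges lay below those of AAV9-GFP and the control and did not overlap each other. With TMM-scaled library sizes the AAV9-AIPL1co and AAV9-AIPL1wt ranges did overlap, with a lowest AAV9-AIPL1co share of 0.1695% and a highest AAV9-AIPL1wt share of 0.171%. The 2-sided exact permutation test gave p = 0.1, the smallest these group sizes allow, for each of the 5 comparisons that involved an AIPL1 vector, and p = 0.3 for AAV9-GFP against the control. After adjustment over the 6 comparisons these were 0.12 and 0.3. In bulk RNA, fewer cells of a kind and less RNA per cell cannot be told apart.

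Against the control, 8 of the 23 collagens rose and 6 fell with AAV9-AIPL1co at an adjusted p under 0.05, where 22.4% of all genes tested rose and 24.5% fell. With AAV9-AIPL1wt 10 rose and 6 fell, against 26.4% and 30.0% of all genes. With AAV9-GFP 2 rose, COL1A1 and COL16A1, against 2.30% of all genes, and edgeR called 0 lower, against 6.66%. In that direction 1 collagen had an unadjusted p under 0.05, and DESeq2 and limma voom also called 0. The median log2 fold change of the collagens was 0.07, 0.05 and 0.14 in the 3 comparisons, beside -0.02, -0.04 and 0.01 over all genes tested. These 3 comparisons share the control libraries.

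A stricter call, here DEG for differentially expressed gene, follows the study in asking for an adjusted p below 0.005 together with a change of about 3-fold or more. With AAV9-AIPL1co, COL1A1 and COL11A2 met it, beside 3.45% of all genes. With AAV9-AIPL1wt 5 collagens met it, COL1A1, COL11A2, COL15A1, COL17A1 and COL4A6, beside 7.27% of all genes. With AAV9-GFP edgeR called 0 DEGs among all genes tested (0%), as did DESeq2 and limma voom, while 3 collagens were higher and 1 lower at an unadjusted p under 0.05.

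**Figure D2:**
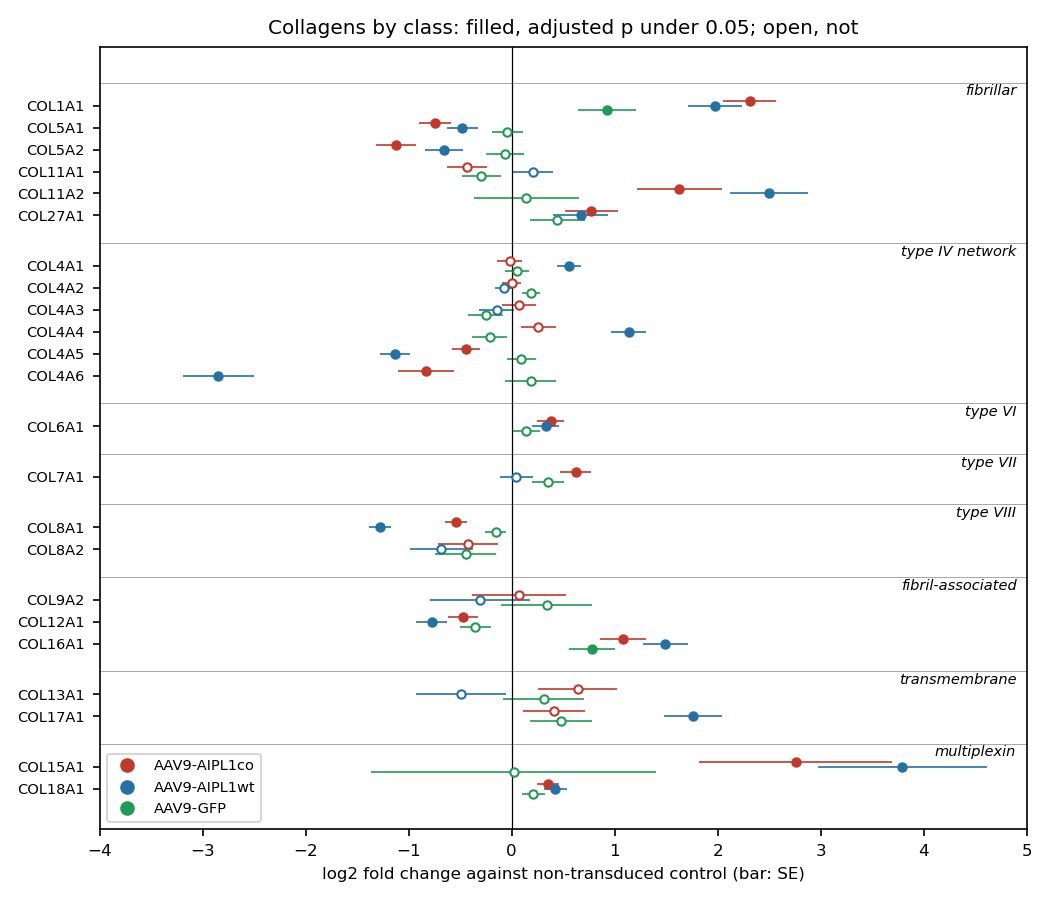
Log2 fold change from the control without vector (x axis, bars are the SE) of the 23 collagen genes tested, grouped by class, with 1 color for each vector; filled points had an adjusted p under 0.05. Rises and falls occur within the fibrillar and the type IV classes, and the 2 filled AAV9-GFP points are COL1A1 and COL16A1.

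Within the fibrillar class, 6 of 11 genes were tested and they split. With both AIPL1 vectors COL1A1, COL11A2 and COL27A1 rose and COL5A1 and COL5A2 fell, and COL11A1 did not pass the test against the control. The class median was 0.17 with AAV9-AIPL1co and 0.44 with AAV9-AIPL1wt.

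COL1A1, on chr17:50184101-50201632 (GRCh38, Gencode 44), encodes the major chain of type I collagen. Its normalized counts, scaled to a common library of 7733104 counts, were 194.7, 167.4 and 109.5 with AAV9-AIPL1co, 110.2, 146.2 and 116.5 with AAV9-AIPL1wt, 59.7, 71.2 and 50.4 with AAV9-GFP, and 36.7 and 27.2 in control replicates 2 and 3. Every library with an AIPL1 vector lay above every AAV9-GFP and control library used, and the AAV9-GFP libraries lay above both controls. The log2 fold change against the control was 2.31 ± 0.26 (SE, adjusted p = 1.70e-06) with AAV9-AIPL1co, 1.97 ± 0.26 (5.68e-06) with AAV9-AIPL1wt and 0.93 ± 0.28 (0.0454) with AAV9-GFP. Control replicate 1, however, held 167.8, within the range of AAV9-AIPL1co. With all 12 libraries the fold changes with the AIPL1 vectors were 1.01 and 0.70 and no longer passed the test (adjusted p = 0.112 and 0.245), and that with AAV9-GFP was -0.36. The AAV9-GFP call held under 11 of 24 alternatives and was lost, among others, without either control (1.20, adjusted p = 0.106, and 0.76, 0.340). COL1A2, the partner chain, had 3 counts in all libraries together.

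COL11A2, which encodes a minor fibrillar chain best known from cartilage, was scarce. Its normalized counts were 13.0428, 16.2 and 16.8 with AAV9-AIPL1co, 23.6, 34.97 and 23.7 with AAV9-AIPL1wt, 4.12, 6.64 and 5.25 with AAV9-GFP, and 5.65 and 4.13 in the controls. The AIPL1 libraries stood apart from the others, and the groups with the native and codon-optimized sequence did not overlap. Log2 fold changes were 1.63 ± 0.42 (adjusted p = 0.00370) and 2.50 ± 0.38 (2.47e-05) against the control, and with AAV9-AIPL1wt the rise against AAV9-GFP, 2.35 ± 0.34 (1.61e-05), kept its call under all 25 alternatives. Control replicate 1 held 21.3, and with all 12 libraries the AAV9-AIPL1co value was 0.54 (adjusted p = 0.399) and the AAV9-AIPL1wt value 1.42 (0.0182), no longer a DEG. Without control replicate 3 the AAV9-AIPL1co value was 1.42 (0.0606). With all 12 libraries and GC offsets the AAV9-AIPL1wt call was lost as well (1.16, 0.0540).

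COL11A1, the more abundant type XI chain, had normalized counts of 388, 474 and 633 with AAV9-AIPL1co, 546, 969 and 797 with AAV9-AIPL1wt, 485, 565 and 593 with AAV9-GFP, and 644 and 697 in the controls. It was higher with AAV9-AIPL1wt than with AAV9-GFP (0.50 ± 0.17, adjusted p = 0.0228), a call lost without AAV9-AIPL1wt replicate 2 (0.30, 0.123) and without AAV9-GFP replicate 1 (0.45, 0.0835). The ratio of COL11A1 to COL11A2 per kilobase was 115 ± 31.5 in the control (n = 2), 85.3 ± 14.3 in the AAV9-GFP libraries, 26.1 ± 3.88 in those of AAV9-AIPL1co and 22.8 ± 4.25 in those of AAV9-AIPL1wt (SD, n = 3 each). The ratios of the AIPL1 libraries, 18.7 to 30.6, lay below those of the other libraries used, while control replicate 1, at 26.6, was within their range.

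Type V collagen, which regulates fibril diameter, fell with the AIPL1 vectors in both of its expressed chains. COL5A2 had 94.1, 106.5 and 106.1 with AAV9-AIPL1co, 98.4, 181.1 and 138.1 with AAV9-AIPL1wt, 207.8, 195.4 and 235.03 with AAV9-GFP, and 196.8 and 247.6 in the controls. All AIPL1 libraries were below the other libraries used, while control replicate 1, at 158.8, lay below 1 AAV9-AIPL1wt library. The fall was 1.12 ± 0.19 (adjusted p = 0.000126) on the log2 scale with AAV9-AIPL1co and 0.66 ± 0.19 (0.00625) with AAV9-AIPL1wt, and against AAV9-GFP it was 1.06 ± 0.18 (0.000206) and 0.59 ± 0.17 (0.00812). COL5A1 fell by 0.74 ± 0.15 (0.000685) and 0.48 ± 0.15 (0.0124) against the control. For AAV9-AIPL1co, both COL5A1 and COL5A2 kept the call against the control under all 24 alternatives and against AAV9-GFP under all 25. For AAV9-AIPL1wt, leaving out control replicate 3 ended both calls against the control (COL5A1 -0.37, adjusted p = 0.150, COL5A2 -0.45, 0.148), and using all 12 libraries did so too. The AAV9-AIPL1wt fall of COL5A2 from AAV9-GFP was not called without AAV9-AIPL1wt replicate 1 (-0.37, 0.0531) or AAV9-GFP replicate 3 (-0.49, 0.0524). The ratio of COL5A1 to COL5A2 per kilobase was between 0.830 and 1.08 as a group mean. Single libraries ranged from 0.937 to 1.36 with AAV9-AIPL1co and from 0.617 to 1.29 with AAV9-AIPL1wt. With AAV9-GFP the range was 0.782 to 0.888, and in the controls 0.778 to 0.882.

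COL27A1, a fibrillar collagen of cartilage and other developing tissues, rose by 0.78 ± 0.26 (adjusted p = 0.0205) with AAV9-AIPL1co and 0.67 ± 0.26 (0.0386) with AAV9-AIPL1wt. These calls were lost without control replicate 3 (0.51, 0.249, and 0.42, 0.316), that of AAV9-AIPL1co also without AAV9-AIPL1co replicate 2 (0.76, 0.0505), and that of AAV9-AIPL1wt also without AAV9-AIPL1wt replicate 1 (0.62, 0.0757) or 2 (0.66, 0.0592).

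**Figure D3:**
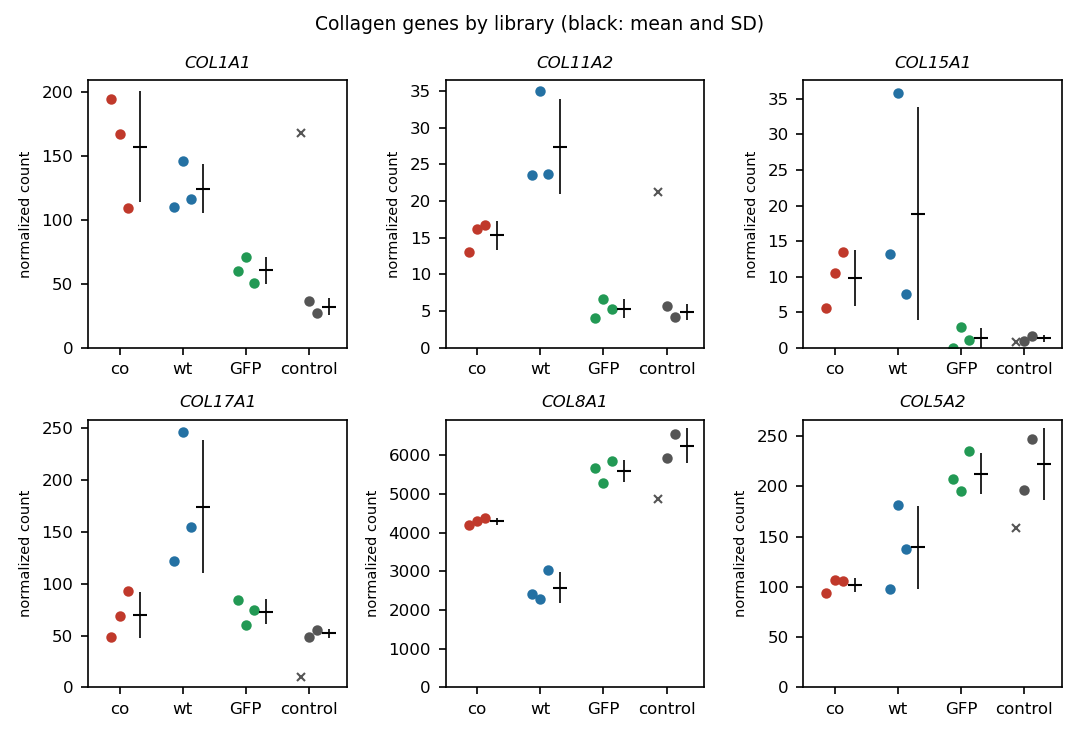
Normalized counts (y axis, from 0) of COL1A1, COL11A2, COL15A1, COL17A1, COL8A1 and COL5A2 in each library of AAV9-AIPL1co (co), AAV9-AIPL1wt (wt), AAV9-GFP and the non-transduced control; crosses are control replicate 1, which is outside the mean and SD drawn in black. Control replicate 1 lies at 167.8 for COL1A1, near the AAV9-AIPL1co libraries, and at 4866 for COL8A1, below the other 2 controls.

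COL8A1, on chr3:99638475-99799226, fell with both AIPL1 vectors. Its normalized counts were 4190.5, 4292 and 4381 with AAV9-AIPL1co, 2418, 2279 and 3025 with AAV9-AIPL1wt, 5665, 5291 and 5852 with AAV9-GFP, and 5920.4 and 6557 in the controls. The 4 groups did not overlap one another, and the order was the control, AAV9-GFP, AAV9-AIPL1co and AAV9-AIPL1wt. Control replicate 1, at 4866, lay below every AAV9-GFP library. The control and AAV9-GFP, neighbours in this order, did not pass the test (-0.16 ± 0.10, adjusted p = 0.352). Against the control COL8A1 fell by 0.54 ± 0.10 (0.000391) with AAV9-AIPL1co and by 1.28 ± 0.10 (3.10e-08) with AAV9-AIPL1wt, that is to 0.413 of the control level, and it was 0.74 ± 0.10 higher with AAV9-AIPL1co than with AAV9-AIPL1wt (1.07e-05). The falls with AAV9-AIPL1wt and the difference between the AIPL1 vectors kept their calls under every alternative run. The AAV9-AIPL1co fall of COL8A1 from the control kept its call under 23 of 24. Its partner COL8A2 was 91.4 ± 10.1 times lower per kilobase in the control (SD, n = 2) and passed no test, with log2 fold changes of -0.42 and -0.68 with AAV9-AIPL1co and AAV9-AIPL1wt.

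The 6 genes of type IV collagen lie in 3 head-to-head pairs, each pair transcribed away from a shared start region. All 6 were expressed and tested. With AAV9-AIPL1co, COL4A5 and COL4A6 fell and the others did not pass the test. With AAV9-AIPL1wt, COL4A1 and COL4A4 rose and COL4A5 and COL4A6 fell. The class median was -0.01 and -0.11 against the control, so the class as a whole was near the median of all genes. With AAV9-AIPL1wt the rises of COL4A1 and COL4A4 were not shared by their pair partners COL4A2 and COL4A3.

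The start regions are shown because the members of a pair share them. They were cut from the RefSeq windows before gene starts (GRCh38.p14, + strand) to the longest stretch with no annotated exon. Of the 44 collagens 32 had a window in that table. Capitals mark matches on either strand to CCAAT or GGGCGG, motifs of many promoters, and TATAAA was searched as well.

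COL4A1 and COL4A2, chr13:110307158-110307257: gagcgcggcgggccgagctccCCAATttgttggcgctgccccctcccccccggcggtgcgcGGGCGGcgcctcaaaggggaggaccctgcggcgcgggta

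COL4A4 and COL4A3, chr2:227164454-227164623: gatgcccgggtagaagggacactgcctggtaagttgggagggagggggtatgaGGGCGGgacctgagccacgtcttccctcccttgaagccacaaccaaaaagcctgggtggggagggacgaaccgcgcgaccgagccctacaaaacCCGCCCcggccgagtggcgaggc

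COL4A6 and COL4A5, chrX:108439588-108439837: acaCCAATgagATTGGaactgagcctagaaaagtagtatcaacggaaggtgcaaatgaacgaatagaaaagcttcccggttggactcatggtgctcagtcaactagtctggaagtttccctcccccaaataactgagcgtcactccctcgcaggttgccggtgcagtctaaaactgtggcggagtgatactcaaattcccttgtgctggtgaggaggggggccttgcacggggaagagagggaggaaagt

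The RefSeq starts were 126, 418 and 379 bases apart in the 3 pairs, and GC content of the stretches was 78.0%, 65.9% and 51.2%. The COL4A1 and COL4A2 stretch held 1 CCAAT and 1 GGGCGG match. At the same place and length, 18.9% and 29.9% of the windows of all genes held at least 1. The COL4A4 and COL4A3 stretch held 2 GGGCGG matches (at least 1 in 38.3% of windows). The COL4A6 and COL4A5 stretch held 2 CCAAT matches (at least 1 in 32.0% of windows) and no GGGCGG match. TATAAA was not found in these stretches and is in 3.4%, 7.4% and 10.7% of windows of the same 3 lengths.

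COL4A5 and COL4A6, on chromosome X, both fell with the AIPL1 vectors, COL4A6 by more. COL4A6 had 31.7, 30.4 and 24.6 normalized counts with AAV9-AIPL1co, 3.94, 9.86 and 6.47 with AAV9-AIPL1wt, 43.2, 74.0 and 58.8 with AAV9-GFP, and 60.3 and 43.7 in the controls. The 3 AAV9-AIPL1wt libraries were the lowest of all, and the AAV9-AIPL1co libraries lay between them and the rest of those used. Against the control COL4A6 fell by 0.83 ± 0.27 (adjusted p = 0.0173) with AAV9-AIPL1co and by 2.85 ± 0.35 (2.33e-06) with AAV9-AIPL1wt, to 0.139 of the control level. COL4A6 was the only collagen DEG between the AIPL1 vectors, higher by 2.02 ± 0.36 (0.000248) with AAV9-AIPL1co. COL4A5 had normalized counts of 236.6, 209.2 and 237.9 with AAV9-AIPL1co, 141.7, 117.5 and 165.1 with AAV9-AIPL1wt, 323.05, 318.8 and 350.4 with AAV9-GFP, and 327.8 and 291.3 in the controls. COL4A5 fell by 0.44 ± 0.14 (0.0145) and 1.13 ± 0.14 (3.62e-06) against the control, and the 2 AIPL1 groups again did not overlap each other or the rest. The falls of both genes in AAV9-AIPL1wt, relative to AAV9-GFP as to the control, kept their calls under every alternative run. The AAV9-AIPL1co falls against the control did not, since leaving out control replicate 2 gave -0.34 (0.160) for COL4A5 and -0.57 (0.208) for COL4A6. COL4A5 also lost it without AAV9-AIPL1co replicate 2 (-0.38, 0.0641), and COL4A6 without AAV9-AIPL1co replicate 3 (-0.73, 0.0574). Against AAV9-GFP the AAV9-AIPL1co values were -0.54 ± 0.13 (0.00344) and -1.02 ± 0.25 (0.00422). The ratio of COL4A5 to COL4A6 per kilobase was 19.1 ± 9.44 with AAV9-AIPL1wt (SD, n = 3), and 4.63 to 6.26 as the mean of the other groups. Control replicate 1 held 457.7 counts of COL4A5 and 24.6 of COL4A6, a ratio of 14.6 per kilobase.

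The pair on chromosome 2 did not move together. COL4A4 had 255.3, 265.3 and 297.1 normalized counts with AAV9-AIPL1co, 393.7, 642.9 and 453.1 with AAV9-AIPL1wt, 199.6, 200.2 and 187.8 with AAV9-GFP, and 239.2 and 215.4 in the controls. The AAV9-AIPL1wt libraries were the highest of these groups, with a log2 fold change of 1.14 ± 0.17 (adjusted p = 1.87e-05) against the control and 1.35 ± 0.15 (1.16e-06) against AAV9-GFP, both called under every alternative run. COL4A4 was also higher with AAV9-AIPL1co than with AAV9-GFP (0.47 ± 0.15, 0.0253), but leaving out AAV9-AIPL1co replicate 2 or 3 or any AAV9-GFP library ended this call (0.41 to 0.49, adjusted p = 0.0572 to 0.0941). COL4A3 ranged from 90.1 to 142.7 over the 11 libraries and its log2 fold change with AAV9-AIPL1wt was -0.14 ± 0.17 (0.492). The ratio of COL4A4 to COL4A3 per kilobase was 4.53 ± 1.31 with AAV9-AIPL1wt (SD, n = 3), and 1.85 to 2.11 as the mean of the other groups. MFF-DT, a long noncoding RNA gene of the other strand, shares 6.8% of the COL4A3 exon bases, and reads were counted without strand. Control replicate 1 held 278.4 counts of COL4A3 and 419.2 of COL4A4, each above the other controls.

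The pair on chromosome 13, which encodes the chains of most basement membranes, also parted. COL4A1 had 938, 968 and 1066 normalized counts with AAV9-AIPL1co, 1438, 1738 and 1247 with AAV9-AIPL1wt, 1068, 1011 and 1037 with AAV9-GFP, and 1023 and 984 in the controls. All AAV9-AIPL1wt libraries lay above all others, and the other 3 groups overlapped. COL4A1 rose with AAV9-AIPL1wt by 0.56 ± 0.12 (adjusted p = 0.000647) against the control and by 0.51 ± 0.11 (0.000602) against AAV9-GFP, with both calls kept under every alternative run. COL4A2 had 1798, 1661 and 1824 with AAV9-AIPL1co, 1673, 1693 and 1648 with AAV9-AIPL1wt, 2104, 1874 and 2033 with AAV9-GFP, and 1723 and 1800.04 in the controls. Its log2 fold change with AAV9-AIPL1wt was -0.08 ± 0.09 (0.488) against the control, and it was lower than with AAV9-GFP (-0.26 ± 0.08, 0.0108), a call lost without AAV9-GFP replicate 1 (-0.20, 0.0835) or replicate 3 (-0.23, 0.0554). The ratio of COL4A1 to COL4A2 per kilobase was 1.16 ± 0.18 with AAV9-AIPL1wt and 0.682 to 0.749 as the mean of the other groups. Each AAV9-AIPL1wt ratio, from 0.994 to 1.35, exceeded each ratio of the other groups.

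Collagens that bind to fibrils moved both ways. COL12A1, abundant in these cells, had 1813, 2176 and 2481 normalized counts with AAV9-AIPL1co, 1357, 2115 and 1757 with AAV9-AIPL1wt, 2245, 2212 and 2559 with AAV9-GFP, and 2709 and 3267 in the controls. Both controls used were above every library with a vector, and control replicate 1, at 2267, was within the vector libraries. The fall against the control was 0.47 ± 0.15 (adjusted p = 0.0148) with AAV9-AIPL1co and 0.77 ± 0.15 (0.000257) with AAV9-AIPL1wt, and the value with AAV9-GFP was -0.35 ± 0.15 (0.134). The AAV9-AIPL1co call was lost without control replicate 3 (-0.32, 0.214) or without AAV9-AIPL1co replicate 1 (-0.34, 0.0934), and with all 12 libraries (-0.34, 0.123), and the AAV9-AIPL1wt call was kept under all 24 alternatives. COL16A1, which lies on fibrils and near basement membranes, lay between 107.5 and 131.4 with AAV9-AIPL1co, between 114.8 and 191.6 with AAV9-AIPL1wt and between 87.3 and 109.1 with AAV9-GFP, above the controls at 64.0 and 47.9. It rose by 1.08 ± 0.22 (0.000660), 1.49 ± 0.22 (1.67e-05) and 0.78 ± 0.23 (0.0400). The AIPL1 calls held under all 24 alternatives, and the AAV9-GFP call under 12 of them. The latter was lost, among others, without control replicate 2 (1.05, 0.0816) or 3 (0.62, 0.331). COL9A2 passed no test, with 5.25 to 16.5 normalized counts.

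COL17A1, a transmembrane collagen of epithelial hemidesmosomes, rose with AAV9-AIPL1wt. Its normalized counts were 48.4, 69.4 and 92.7 with AAV9-AIPL1co, 122.03, 246.6 and 155.3 with AAV9-AIPL1wt, 84.4, 60.7 and 74.5 with AAV9-GFP, and 48.98 and 55.3 in the controls. The AAV9-AIPL1wt libraries were above the other libraries used, and AAV9-AIPL1co overlapped both AAV9-GFP and the control. The log2 fold change with AAV9-AIPL1wt was 1.76 ± 0.28 (adjusted p = 3.98e-05) from the control and 1.28 ± 0.24 (0.000228) from AAV9-GFP, and the difference of AAV9-AIPL1co from AAV9-AIPL1wt was -1.35 ± 0.24 (0.000238). All 3 calls held under every alternative run. Control replicate 1 held 9.82. COL13A1, the other transmembrane collagen tested, passed only the test between the AIPL1 vectors, where it was 1.13 ± 0.38 higher with AAV9-AIPL1co (0.0220), a call lost without AAV9-AIPL1co replicate 3 (0.77, 0.132) or AAV9-AIPL1wt replicate 2 (0.87, 0.101).

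Both multiplexins rose with both AIPL1 vectors against the control, and only COL15A1 did so against AAV9-GFP. COL15A1, on chr9:98943179-99070792, was nearly silent without AIPL1, with raw counts of 1 and 2 in the controls used, 0, 3 and 1 with AAV9-GFP, 6, 11 and 12 with AAV9-AIPL1co, and 10, 40 and 7 with AAV9-AIPL1wt. Every AIPL1 library held more than every other. Scaled for library size, the ratio to the control was 7.28 (95% counting interval 2.26 to 37.3) with AAV9-AIPL1co and 15.4 (5.01 to 76.9) with AAV9-AIPL1wt. These intervals rest on 3 control counts and cover counting error only. The test gave adjusted p = 0.0219 and 0.000736. The AAV9-AIPL1wt call held under all 24 alternatives with log2 fold changes of 2.83 to 4.25. The AAV9-AIPL1co call was lost without AAV9-AIPL1co replicate 2 (2.69, 0.0508) or 3 (2.50, 0.0629), and without control replicate 2 (2.47, 0.114) or 3 (3.20, 0.0911).

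COL18A1, the source of endostatin, had 1784, 1543 and 1667 normalized counts with AAV9-AIPL1co, 1685, 1985 and 1564 with AAV9-AIPL1wt, 1492, 1627 and 1402 with AAV9-GFP, and 1316 and 1287 in the controls. The controls used were the lowest and the vector groups overlapped. The rise was 0.36 ± 0.11 (adjusted p = 0.0128) and 0.42 ± 0.11 (0.00315) with the AIPL1 vectors. Control replicate 1, at 1714, was within the vector groups, and with all 12 libraries the rises were 0.21 (0.227) and 0.31 (0.0693). Without control replicate 2 or 3 the AAV9-AIPL1co rise was not called (0.39, 0.0552, and 0.35, 0.0901). Against AAV9-GFP, COL18A1 was 0.14 ± 0.10 (0.282) with AAV9-AIPL1co and 0.21 ± 0.10 (0.0767) with AAV9-AIPL1wt, neither called. SLC19A1, on the other strand, shares 18.5% of the COL18A1 exon bases, where reads of the 2 genes could not be told apart without strand.

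COL6A1 of the beaded filaments and COL7A1 of the anchoring fibrils completed the set. COL6A1 rose by 0.38 ± 0.13 (adjusted p = 0.0227) and 0.33 ± 0.13 (0.0390) with the AIPL1 vectors, from 252.4 and 251.7 in the controls to 294.8 to 370.8 with AAV9-AIPL1co. COL7A1 rose with AAV9-AIPL1co by 0.62 ± 0.15 (0.00304) against the control, and was 0.57 ± 0.14 higher than with AAV9-AIPL1wt (0.00293). Against AAV9-GFP these rises were not called. COL6A1 was 0.24 ± 0.12 (0.126) with AAV9-AIPL1co and 0.19 ± 0.12 (0.184) with AAV9-AIPL1wt, and COL7A1 was 0.26 ± 0.14 (0.150) with AAV9-AIPL1co. These calls against the control did not all hold when 1 library was left out. Without control replicate 2 or 3, COL6A1 was 0.40 and 0.39 with AAV9-AIPL1co and 0.37 and 0.36 with AAV9-AIPL1wt. These values were not called, though no smaller than with both controls. COL7A1 was not called with AAV9-AIPL1co without control replicate 3 (0.42). Such fits keep 1 control and have less power, so they cannot show that 1 library carried a change. COL6A1 also lost its call without AAV9-AIPL1co replicate 1 (0.30, 0.0879) or AAV9-AIPL1wt replicate 1 (0.32, 0.0554). Control replicate 1 held 411 counts of COL6A1 and 424 of COL7A1, above every other library for both.

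Base composition moved with these changes. Exons of the 23 collagens had a median GC content of 53.2%, against 47.6% over all genes tested. Collagens that rose with AAV9-AIPL1co had a median of 61.3% and those that fell 45.9%, and with AAV9-AIPL1wt these were 58.8% and 45.9%. Across the 23 collagens Pearson's r between log2 fold change and exon GC was 0.40 with AAV9-AIPL1co, 0.30 with AAV9-AIPL1wt and 0.49 with AAV9-GFP. Across all genes it was 0.38, 0.27 and 0.54. With all 12 libraries r across the collagens was 0.26, 0.19 and 0.02, and across all genes 0.41, 0.29 and 0.45. The genes share the same libraries, and these values are a description. The mean exon GC weighted by counts was 49.6% and 49.7% in the 2 controls and 50.2% to 50.9% in the vector libraries. In control replicate 1 it was 49.3%.

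With offsets that remove each library's trend on exon GC, 4 collagens rose and 4 fell with AAV9-AIPL1co, beside 19.7% and 19.8% of all genes, and 7 rose and 7 fell with AAV9-AIPL1wt, beside 27.7% and 26.2%. COL18A1 then had log2 fold changes of -0.08 (adjusted p = 0.614) and 0.10 (0.478), COL6A1 0.01 (0.947) and 0.05 (0.743), and COL27A1 0.51 (0.114) and 0.47 (0.123), so the rises of these 3 genes were no longer called. COL7A1 with AAV9-AIPL1co was 0.25 (0.154), and the falls of COL12A1 and COL4A5 with AAV9-AIPL1co also lost their calls (-0.25, 0.140, and -0.27, 0.123). COL16A1 stayed called at 0.78 (0.00466) and 1.26 (4.02e-05), and COL17A1 with AAV9-AIPL1wt at 1.59 (0.000290). Neither AAV9-GFP call remained under this setting, where 0.223% of all genes rose and 0.317% fell. The part of base composition in the unadjusted values was not tested further.

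**Figure D4:**
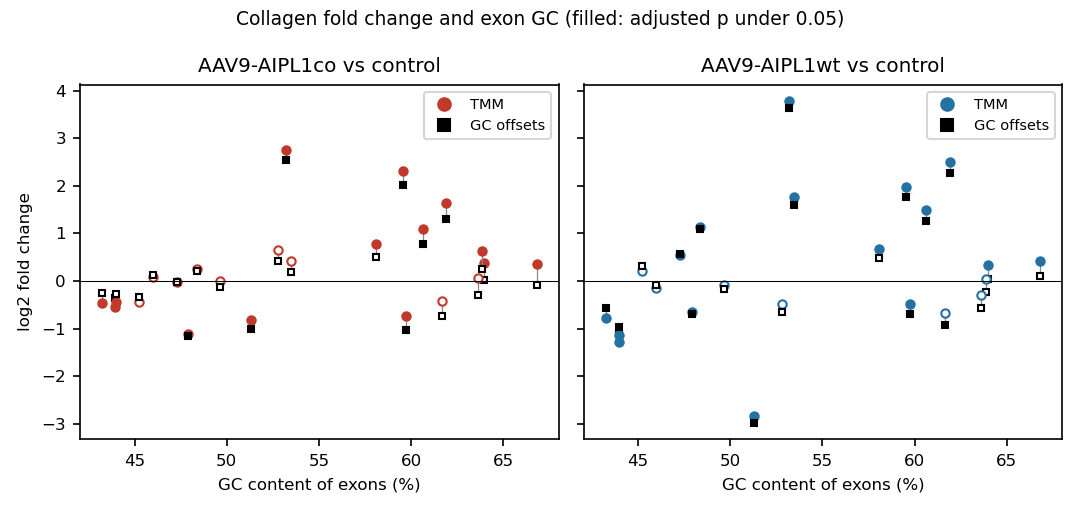
Log2 fold change against the control (y axis) by GC content of exons in percent (x axis) for the 23 collagens, with AAV9-AIPL1co at left and AAV9-AIPL1wt at right; colored circles are the TMM fit, black squares the fit with GC offsets, and filled symbols had an adjusted p under 0.05. The offsets move GC-rich genes down, and COL18A1, the rightmost point at 66.8%, goes from 0.36 to -0.08 with AAV9-AIPL1co.

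Comparisons among the vectors use the controls only for the filter on low counts, the scaling and the estimate of spread. AAV9-AIPL1co against AAV9-GFP gave 4 collagens higher and 5 lower, beside 16.1% and 14.8% of all genes. By edgeR 0 of them were DEGs (1.63% of all genes), with 4 higher and 6 lower at an unadjusted p under 0.05 and 0 DEGs by DESeq2 or limma voom. AAV9-AIPL1wt against AAV9-GFP gave 8 higher and 7 lower, beside 25.6% and 25.5%, and COL11A2, COL15A1 and COL4A6 as DEGs, beside 5.20%. Between AAV9-AIPL1co and AAV9-AIPL1wt 5 were higher and 6 lower with the codon-optimized sequence, beside 22.3% and 19.3%, with COL4A6 as the DEG, beside 2.76%. Higher were COL4A5, COL4A6, COL7A1, COL8A1 and COL13A1, and lower were COL4A1, COL4A4, COL5A2, COL11A1, COL11A2 and COL17A1. COL5A2 and COL11A2 were the least stable of these, with COL5A2 called under 12 of 25 alternatives and COL11A2 under 18. File names carry 2 dates, and both controls used have the second date. With libraries of the first date alone (2 per vector group) the 3 comparisons called 10, 15 and 11 collagens, and kept 9 of 9, 14 of 15 and 8 of 11 calls. With a date term the AAV9-AIPL1co and AAV9-AIPL1wt comparisons with the control called 13 and 17, against 14 and 16.

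Collagen chains need enzymes for hydroxylation, folding and export before they are secreted. The counts of this list and of those that follow stand beside 22.4% of all genes higher and 24.5% lower with AAV9-AIPL1co, 26.4% higher and 30.0% lower for AAV9-AIPL1wt, and 2.30% higher and 6.66% lower for AAV9-GFP. Of 20 such genes, all tested, 2 rose and 8 fell with AAV9-AIPL1co, 4 rose and 11 fell with AAV9-AIPL1wt, and 4 fell with AAV9-GFP. P4HA1, a catalytic subunit of prolyl 4-hydroxylase, averaged 869.8 ± 52.6 normalized counts in the control (SD, n = 2), 402.5 ± 55.3 in AAV9-GFP, 191.5 ± 2.03 in AAV9-AIPL1co and 204.3 ± 45.1 in AAV9-AIPL1wt libraries (n = 3 each). It fell by 2.18 ± 0.15 (adjusted p = 9.32e-09), 2.08 ± 0.15 (8.56e-09) and, with AAV9-GFP, 1.11 ± 0.14 (0.000874). PLOD2, which hydroxylates lysines of the collagen telopeptides, fell with all 3 vectors, with log2 fold changes of -1.68 ± 0.15 (1.38e-07), -1.575 ± 0.15 (1.49e-07) and -1.05 ± 0.15 (0.00154). PLOD1, a lysyl hydroxylase of the helix, fell by 0.48 ± 0.14 (0.0105) and 0.93 ± 0.14 (3.25e-05), while P3H1, a prolyl 3-hydroxylase, rose by 0.97 ± 0.14 (2.24e-05) and 0.84 ± 0.14 (5.47e-05) with the AIPL1 vectors. The list holds enzymes also used outside collagen.

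For removal of propeptides and cross-linking, 12 of 14 genes were tested, and 2 rose and 3 fell with AAV9-AIPL1co and 3 rose and 5 fell with AAV9-AIPL1wt. The AAV9-AIPL1co fall count and the AAV9-AIPL1wt rise count were near the shares of all genes. LOX, the lysyl oxidase that starts cross-links, fell by 1.03 ± 0.13 (adjusted p = 6.93e-06) and 1.31 ± 0.13 (3.20e-07). PCOLCE2, an enhancer of procollagen C-proteinase, fell by 0.80 ± 0.13 and 1.13 ± 0.13, and LOXL4 by 0.81 ± 0.30 and 1.05 ± 0.31. ADAMTS14, a procollagen N-proteinase, rose by 2.73 ± 0.39 (2.42e-05) and 1.16 ± 0.46 (0.0374).

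Of 8 collagen-degrading enzymes 5 were tested, and 4 rose with AAV9-AIPL1co and 3 with AAV9-AIPL1wt. CTSK, a cathepsin that cuts the triple helix, rose from 831.4 ± 77.5 normalized counts in the control (SD, n = 2) to 3753 ± 303 under AAV9-AIPL1co and 1469 ± 293 under AAV9-AIPL1wt (n = 3 each), or by 2.18 ± 0.15 (adjusted p = 7.95e-09) and 0.82 ± 0.14 (8.38e-05) on the log2 scale. CTSL, another cathepsin, rose by 0.965 ± 0.16 and 0.95 ± 0.16. The collagenases MMP1 and MMP14 rose with AAV9-AIPL1co, by 1.29 ± 0.23 (0.000212) and 1.08 ± 0.11 (5.53e-07), and had log2 fold changes of -0.60 (0.0632) and -0.14 (0.277) with AAV9-AIPL1wt.

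Of 10 collagen receptors 7 were tested, and 2 rose and 2 fell with AAV9-AIPL1co and 4 rose and 2 fell with AAV9-AIPL1wt. The AAV9-AIPL1co counts and the AAV9-AIPL1wt fall count were near the shares of all genes. DDR2, a receptor tyrosine kinase for fibrillar collagen, fell by 0.52 ± 0.12 (adjusted p = 0.00209) and 1.30 ± 0.13 (1.87e-07), and ITGB1, the shared beta chain of collagen-binding integrins, by 0.92 ± 0.12 and 0.60 ± 0.12. With AAV9-AIPL1wt the alpha chains ITGA11 and ITGA2 rose by 2.40 ± 0.54 (0.00106) and 0.92 ± 0.35 (0.0330). ITGA11 was scarce, at 12.2 ± 1.22 normalized counts with AAV9-AIPL1wt and 2.24 ± 0.83 in the control. With AAV9-GFP, DDR2 and ITGB1 also fell, by 0.56 ± 0.12 (0.0141) and 0.55 ± 0.12 (0.0123).

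Of 13 fibril-binding matrix proteins 7 were tested, and 3 rose and 3 fell with AAV9-AIPL1co and 2 rose and 1 fell with AAV9-AIPL1wt. NID2, a linker of basement membranes, rose by 1.31 ± 0.15 (adjusted p = 2.37e-06) and 0.63 ± 0.15 (0.00182). SPARC, a collagen-binding protein, fell by 0.65 ± 0.09 (9.14e-06) with AAV9-AIPL1co and had -0.07 (0.493) with AAV9-AIPL1wt. TNC rose with AAV9-AIPL1wt (1.77 ± 0.47, 0.00386) and with AAV9-GFP (1.60 ± 0.48, 0.0439), and PRELP, at few counts, with AAV9-AIPL1co (1.51 ± 0.60, 0.0451).

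Of the 12 TGF-beta ligands, receptors and SMAD-related genes, whose pathway is a known inducer of fibrillar collagen, all were tested. With AAV9-AIPL1co 3 rose and 5 fell and with AAV9-AIPL1wt 4 rose and 2 fell, the AAV9-AIPL1co rise count being near the share of all genes. TGFB2 fell by 1.05 ± 0.14 (adjusted p = 9.73e-06) and 0.48 ± 0.14 (0.00656), and TGFB3 fell with AAV9-AIPL1co by 1.89 ± 0.44 (0.00176) and had -0.27 (0.539) with AAV9-AIPL1wt. TGFBR3, a coreceptor, rose by 0.88 ± 0.20 (0.00169) and 0.70 ± 0.21 (0.00769). SKIL, a feedback inhibitor, fell with AAV9-AIPL1co (-0.67 ± 0.22, 0.0179) and with AAV9-GFP (-0.76 ± 0.22, 0.0408).

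Markers of cell type were read beside the collagens. Of 10 markers of retinal pigment epithelium 4, RPE65, RGR, TTR and TYR, had under 10 counts in every library, and 5 were tested. Of those tested, 1 rose and 3 fell with AAV9-AIPL1co (22.4% and 24.5% of all genes), and 2 fell with AAV9-AIPL1wt (30.0%). The summed normalized counts of that list, mostly the keratins KRT8 and KRT18, were 6733 to 7936 in the controls, 5653 to 6898 with AAV9-GFP, 5141 to 5679 with AAV9-AIPL1wt and 3214 to 3327 with AAV9-AIPL1co. The 10 fibroblast and mesenchymal markers, of which PDGFRA, THY1 and TWIST2 had under 10 counts everywhere, summed to 21065 to 21460 (control), 20891 to 22070 (AAV9-GFP), 18459 to 18734 (AAV9-AIPL1wt) and 16164 to 16378 (AAV9-AIPL1co). Of the fibroblast and mesenchymal markers 7 were tested, and they moved both ways. With AAV9-AIPL1co 2 rose and 2 fell (22.4% and 24.5% of all genes), with log2 fold changes from -0.83 to 2.90. With AAV9-AIPL1wt 2 rose and 3 fell (26.4% and 30.0%), from -2.48 to 3.07. The part of these shifts in the collagen values was not tested.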

How the data were processed

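Gene counts were deposited as raw counts per library. The authors aligned 60-base reads of unstranded poly(A) libraries with STAR 2.7.10b to GRCh38, with 4 vector sequences added to Gencode 43, and used HTSeq 0.11.1 to count reads that aligned once over the union of a gene's exons. STAR's own counts, deposited too, equalled them in every gene. Libraries held 10088882 to 12811670 reads and 6322811 to 9075660 gene counts, so intervals on few counts are wide.

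In R 4.3.3, edgeR 4.0.16 (filterByExpr by group, TMM, quasi-likelihood test, group as the only term) was fitted to all genes over 11 libraries, with control replicate 1 left out as in the study, with Benjamini-Hochberg adjustment over 13896 genes. SEs were derived from the F statistic. Normalized counts are scaled to the geometric mean effective library. Lengths, exon GC and positions are from Gencode 44, matched by identifier. The fit was tested on simulated data. Alternatives used DESeq2 1.42.0, limma 3.58.1 and other settings, and all 12 libraries with GC offsets was added after seeing the data.

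Values were given per library for collagens that were DEGs in any comparison, for the 6 with the highest level per kilobase, and for their partners. From each other list up to 4 genes with the largest called change against the control with either AIPL1 vector were named. The other collagens tested are given by range or fold. The members and lists were chosen with earlier results of these data known. Same-numbered libraries of different groups deviated together in 2 of 15 pairs of libraries (r over 0.1), and differently numbered ones in 3 of 30. The samples were therefore not treated as paired, although so few pairs cannot exclude it. P-values set differences between groups against the spread between replicates of the same line, and do not cover other lines. One of the marker lists is not reported here.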

Additional observations from a re-analysis of the deposited data

Results flagged for a closer look

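Control replicate 1, left out of the comparisons, held 5 collagens at over 2-fold the level of both other controls with at least 10 counts. Its normalized counts were 167.8 for COL1A1, 21.3 for COL11A2, 41.8 for COL13A1, 278.4 for COL4A3 and 73.7 for COL8A2. In control replicates 2 and 3 these were 36.7 and 27.2 for COL1A1, 5.65 and 4.13 for COL11A2, 14.1 and 19.0 for COL13A1, 130.9 and 124.6 for COL4A3, and 34.8 and 33.0131 for COL8A2. What sets this library apart was not tested. By the mean of the other 2 controls, 6 of 23 collagens were over 2-fold higher and 3, COL17A1, COL16A1 and COL4A6, over 2-fold lower, beside 6.86% and 7.97% of all genes tested.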

How the results depend on the processing

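In the order AAV9-AIPL1co, AAV9-AIPL1wt and AAV9-GFP against the control, AAV9-AIPL1co and AAV9-AIPL1wt against AAV9-GFP, and AAV9-AIPL1co against AAV9-AIPL1wt, 14, 16, 2, 9, 15 and 11 collagens were called. Of these calls 3, 9, 0, 3, 8 and 6 held under every alternative. With all 12 libraries the counts for AAV9-AIPL1co and AAV9-GFP against the control and between the AIPL1 vectors were 6, 1 and 7. AAV9-AIPL1wt against the control then had 6 higher and 5 lower. Against AAV9-GFP, AAV9-AIPL1co had 1 higher and 5 lower, and AAV9-AIPL1wt 7 and 4. Over all genes, AAV9-AIPL1co against the control went from 3107 higher and 3401 lower of 13896 to 2504 and 2732 of 13693. The settings that follow leave out comparisons whose count shifted less. Adding a date term to the 12 libraries gave 7 for the first comparison, 5 and 9 for the AIPL1 vectors against AAV9-GFP, and 7 between the AIPL1 vectors. GC offsets left 8 with AAV9-AIPL1co and 0 with AAV9-GFP against the control. All 12 libraries with GC offsets, chosen after seeing the data, left 6 and 0 there, 3 for AAV9-AIPL1co against AAV9-GFP and 7 between the AIPL1 vectors. For AAV9-GFP against the control that setting called 0 of all 13693 genes tested. For AAV9-GFP against the control a date term, library size scaling and limma voom each gave 1. Leaving out 1 library gave 7 to 15, 12 to 17, 0 to 3, 7 to 9, 11 to 16 and 10 to 11. For AAV9-AIPL1co against the control, 7 were called without control replicate 3 and 9 without control replicate 2. Of 737 values of the 67 gene calls in these fits, 70 were no longer called and 0 reversed, and of 906 values under the other settings 116 were no longer called and 11 reversed.

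The reversed values were as follows. COL1A1 with AAV9-GFP was -0.36 with all 12 libraries, without and with a date term, and -0.57 with GC offsets as well. With AAV9-AIPL1co, COL18A1 was -0.077 with GC offsets, and with all 12 libraries and GC offsets COL7A1 was -0.078, COL6A1 -0.26 and COL18A1 -0.21. With AAV9-AIPL1wt, COL6A1 and COL18A1 were -0.22 and -0.027 there. The cause was not tested.

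Replicate numbers were not shown to pair the samples, and the check cannot exclude that they do. With the replicate block the counts were 14, 16, 1, 9, 15 and 13. With the replicate block and GC offsets 8 were called with AAV9-AIPL1co and 0 with AAV9-GFP against the control, and COL6A1 and COL18A1 with AAV9-AIPL1co were -0.016 and -0.047.

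The control rests on 2 libraries of 1 file date, so date and control cannot be told apart beyond the date term, and genes at few counts, such as COL15A1, have wide counting intervals. The collagen share of gene counts moved by less than the SD within groups under the alternatives run.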
